A study of Mus musculus with 162 samples.

Results

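Amino acid catabolism is the breakdown of amino acids for energy, glucose and urea, and 9 of its enzymes are described here: Tat, Hpd, Tdo2, Sds, Sdsl, Agxt, Gpt, Gpt2 and Hal. They were chosen by gene symbol as enzymes of this pathway, and all 9 symbols were found among the 53686 genes of the count table. The mice were male C57BL/6J animals, 8 to 9 weeks old and group-housed, that were fed ad libitum (0 h) or had food withdrawn for 2, 8, 12, 18 or 22 h, with water throughout and 3 mice per time point. mRNA of 9 organs of each of the 18 mice was sequenced: olfactory bulb (OB), telencephalon with diencephalon (BRN), cerebellum (CBL), brainstem (BST), liver (LIV), stomach (STM), the brown fat between the shoulder blades (iBAT) and the perigonadal (pgWAT) and posterior-subcutaneous (psWAT) white fat depots. All mice were killed within the same early hours of the dark phase, so that the length of short-term fasting (STF) and the hour at which food was withdrawn differ together and cannot be told apart. In addition, a fast of 8 or 12 h lay mostly in the light phase, when mice eat little, and a fast of 18 or 22 h took in part or most of the preceding dark phase.

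The breakdown of an amino acid begins in one of a few ways. An aminotransferase moves the amino group onto a keto acid, a dehydratase or ammonia lyase frees it as ammonia, or an oxygenase opens the ring, and the carbon skeleton then enters glucose synthesis, the citric acid cycle or ketone body formation. LIV holds most of these enzymes, and in rodents the genes of several of them, Tat, Tdo2 and Sds among them, are textbook targets of glucocorticoids and glucagon. Many are expressed at a higher level in the hepatocytes around the portal vein than in those around the central vein.

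After 5 libraries with low totals were left out, the others held 3045845 to 27801717 counts each, and 6959200 to 12451777 in LIV. A level is given as CPM with the library total scaled by its TMM factor (normalized CPM), and levels of different genes are set against each other only per kb of exon. A difference is a log2FC with its SE from edgeR's quasi-likelihood test, and a gene passed at a Benjamini-Hochberg adjusted p under 0.05 over all genes tested in that comparison. In LIV the libraries of 0 and 2 h were all on sequencing lane L001 and those of 12, 18 and 22 h all on L002, with 2 libraries of 8 h on the former and 1 on the latter, so lane and time cannot be told apart in most comparisons. LIV replicates 1 and 2 at 0 h lay closer together than any other LIV pair (median chi-square per gene 0.664, against 1.53 to 4.06 in the other pairs) but still differed by more than counting noise over all genes (mean 2.13), and were counted as separate samples. The labels name the mouse of each library, so that p-values rest on the spread between mice. As in any bulk tissue, fewer cells of a type and less RNA per cell cannot be told apart.

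The positions of the genes are given on GRCm38. Tat (chr8:109990437-109999803, plus strand) and Gpt2 (chr8:85492576-85527560, plus) share chromosome 8, and Sdsl (chr5:120458186-120472810, minus), Sds (chr5:120476526-120483932, plus) and Hpd (chr5:123171807-123182727, minus) share chromosome 5. Sds and Sdsl, which encode related dehydratases, are neighbours that are transcribed away from each other, with 3715 bases between them. The others are Agxt (chr1:93135240-93145421, plus), Tdo2 (chr3:81957090-81976202, minus), Hal (chr10:93488768-93519304, plus) and Gpt (chr15:76695716-76699686, plus). All are protein coding. Within the span of Sds lies the antisense gene Gm15690 (chr5:120479842-120480903, minus), and the minus-strand gene Plbd2 overlaps it too. They share 8.32% and 21.3% of the 1694 exon bases of Sds. The counting left out reads on exons of more than 1 gene, and its strand setting is not given in the sources used here, so reads of Sds on these bases may be lost. The span of Hpd overlaps Gm26745 (minus) and Psmd9 (plus), with 0 shared exon bases.

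RefSeq promoter windows, 250 bases before to 50 bases after the start in GRCm38.p6, were held for 6 of the 9 genes. They were searched on both strands for the letters of a cAMP response element (TGACGTCA, and the shorter TGACG, which it contains), a glucocorticoid response element (the palindrome of AGAACA and TGTTCT with 3 bases between and up to 2 mismatches, and the single TGTTCT), C/EBP sites (TTGCGCAA and the looser TTGCNNAA), an HNF1-like site (GTTAAT), an E-box (CACGTG), a D-box (TTATGTAA) and a TATA box (TATAAA). The following 3 windows are shown because Agxt passed the test in LIV most often, Tat had the lowest log2FC of the 9 at 8 and 12 h, and Hal varied little. Capitals mark a match.
Agxt (chr1:93134990-93135289, plus): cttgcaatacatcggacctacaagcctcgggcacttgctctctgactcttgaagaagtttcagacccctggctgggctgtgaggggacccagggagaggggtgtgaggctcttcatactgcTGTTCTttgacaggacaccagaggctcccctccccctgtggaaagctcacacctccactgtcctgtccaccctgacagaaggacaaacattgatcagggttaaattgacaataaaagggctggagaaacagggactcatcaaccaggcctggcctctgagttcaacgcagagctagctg
Tat (chr8:109990186-109990485, plus): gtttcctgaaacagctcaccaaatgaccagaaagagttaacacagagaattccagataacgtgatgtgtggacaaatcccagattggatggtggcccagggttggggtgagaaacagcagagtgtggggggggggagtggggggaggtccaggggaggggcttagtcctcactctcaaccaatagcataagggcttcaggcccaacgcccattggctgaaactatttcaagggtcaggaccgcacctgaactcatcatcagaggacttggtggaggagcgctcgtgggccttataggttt
Hal (chr10:93488518-93488817, plus): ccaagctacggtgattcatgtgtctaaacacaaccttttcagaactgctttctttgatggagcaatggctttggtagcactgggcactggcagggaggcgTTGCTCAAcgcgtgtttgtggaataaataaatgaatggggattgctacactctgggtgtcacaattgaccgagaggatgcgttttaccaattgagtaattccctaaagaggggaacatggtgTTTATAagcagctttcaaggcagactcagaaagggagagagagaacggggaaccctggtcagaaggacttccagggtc
In Agxt the letters TGTTCT lay at -129 to -124 from the start, and 18.97% of all 32851 windows hold them. In Hal the looser C/EBP letters lay at -150 to -143, with a share of 10.8%, and the TATA box on the reverse strand at -28 to -23, with a share of 13.6%. Tdo2 held TATAAA at -229 to -224, and Tat, Gpt2 and Hpd held none of the letters searched. The other motifs were held by 20.8% (TGACG), 7.15% (CACGTG), 7.10% (GTTAAT), 1.84% (the palindrome), 1.79% (TGACGTCA), 0.938% (TTATGTAA) and 0.183% (TTGCGCAA) of the windows. A match is a description of letters and no binding site.

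In LIV all 9 genes passed the filter on low counts. Per kb of exon and averaged over all times, Hpd had a mean of 864 ± 112.7 normalized CPM per kb (SD, n = 18), followed by Tat at 767 ± 304, Sds at 264 ± 153.8, Tdo2 at 198 ± 58.9, Agxt at 125.5 ± 37.2, Gpt at 109.9 ± 14.4, Gpt2 at 92.9 ± 14.0, Hal at 50.9 ± 6.76 and Sdsl at 17.9 ± 6.56. Part of this order changed with time: the mean of Tat exceeded that of Hpd at 0, 2 and 22 h (975 against 872 normalized CPM per kb at 0 h) and lay below it at 8, 12 and 18 h, and Tdo2 exceeded Sds at 0 and 8 h. The genes fell into a variable and a steady set. Sds varied most over the 18 libraries, with a highest level 8.60 times the lowest (4.72 without 18 h replicate 3 and 5.04 without 0 h replicate 3), followed by Tat at 3.92, Sdsl at 2.81, Tdo2 at 2.64 and Agxt at 2.59 times. Gpt2, Hpd, Hal and Gpt spanned only 1.605 to 1.703 times. The libraries at the extremes were often the same: 18 h replicate 3 was the highest of all in 5 genes (Gpt2, Hpd, Sds, Tat and Tdo2), 18 h replicate 2 in 3 (Agxt, Hal and Sdsl), and 0 h replicate 3 the lowest in 4 (Gpt2, Hpd, Sds and Sdsl).

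**Figure D1:**
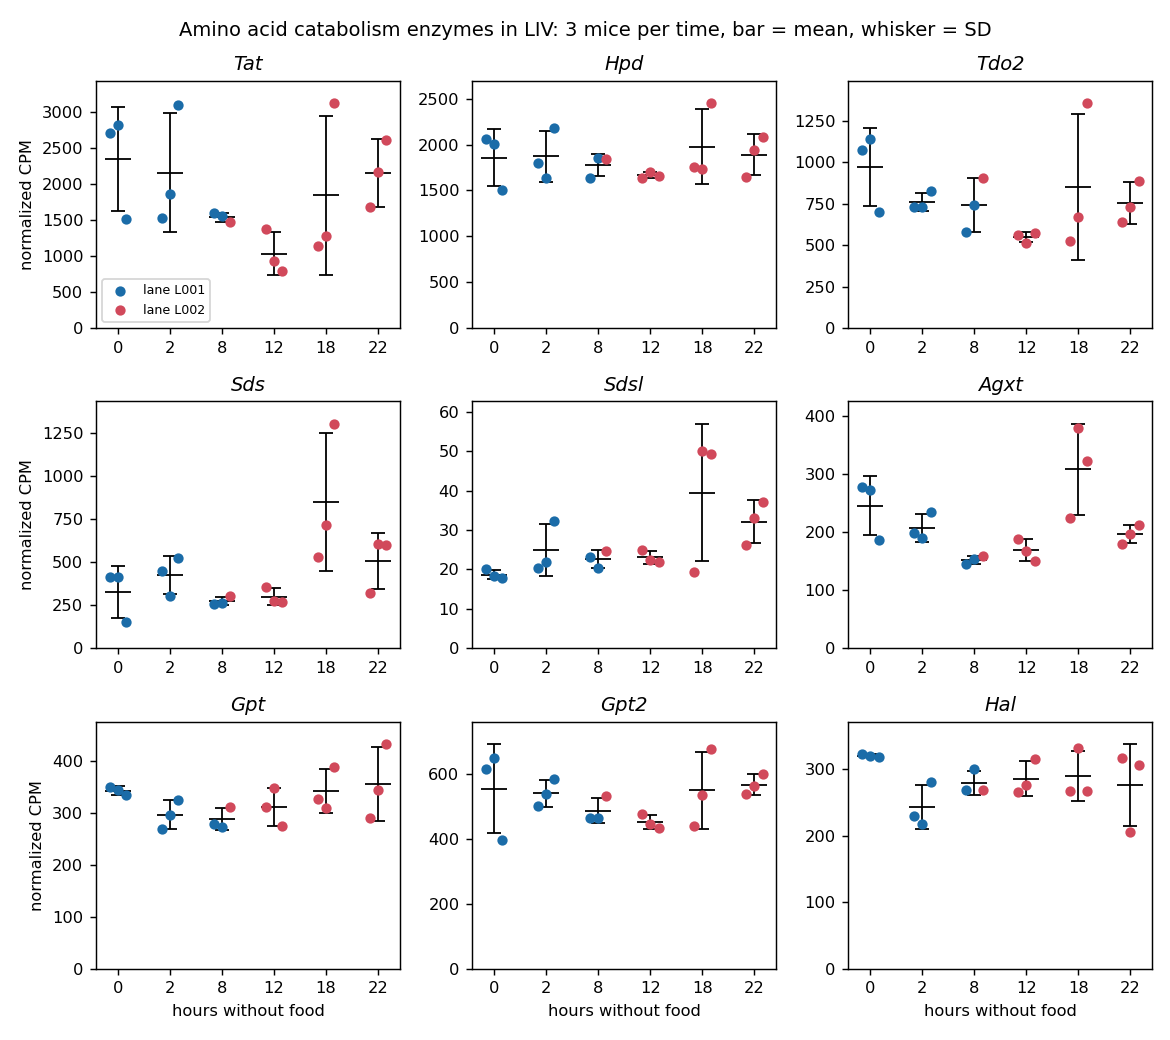
Normalized CPM in LIV (vertical axes, linear, from 0) of the 9 enzymes against hours without food, with 1 point per mouse, the mean as a bar and the SD as whiskers (n = 3), coloured by sequencing lane. Tat reaches its lowest mean at 12 h, Agxt at 8 h, Sds and Sdsl are highest at 18 h, and Gpt, Gpt2, Hal and Hpd stay within a narrow band.

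The 3 pooled comparisons, each of 6 against 6 libraries in the fit of all 18, asked how the enzymes differed between no or 2 h without food, the 8 and 12 h fasts and the 18 and 22 h fasts. After 8 and 12 h, Agxt was the only one of the 9 that passed, at 0.711 times its level at 0 and 2 h, and 7 of the 9 had a log2FC below 0 (median -0.22, against 0.01 over all 14023 genes). Of all genes 18% passed in this comparison, so the count of 1 in 9 is no larger than the background. After 18 and 22 h against 0 and 2 h, Sdsl was the only one that passed, at 1.65 times, while 7 of the 9 had a log2FC above 0 (median 0.05, against 0.01 over all genes) and the background was 15%. Between the long and the shorter fasts, 18 and 22 h against 8 and 12 h, Agxt and Sds passed, at 1.53 and 2.29 times, the median log2FC of the 9 was 0.33 (0.00 over all genes) and 2.7% of all genes passed. All 9 were at or above 0 there, with Hal at 0.00, and 8 of 9 were above 0 under DESeq2 or its size factors, with no filter, with a CPM minimum of 5, with the replicate block and with the 2 alike libraries of 0 h merged. Without 1 library at a time the median of the 9 ranged from -0.32 to -0.16 in the first comparison, from 0.01 to 0.11 in the second and from 0.16 (without 18 h replicate 3) to 0.45 in the third. These 3 comparisons share libraries, so their values are no independent evidence of each other.

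**Figure D2:**
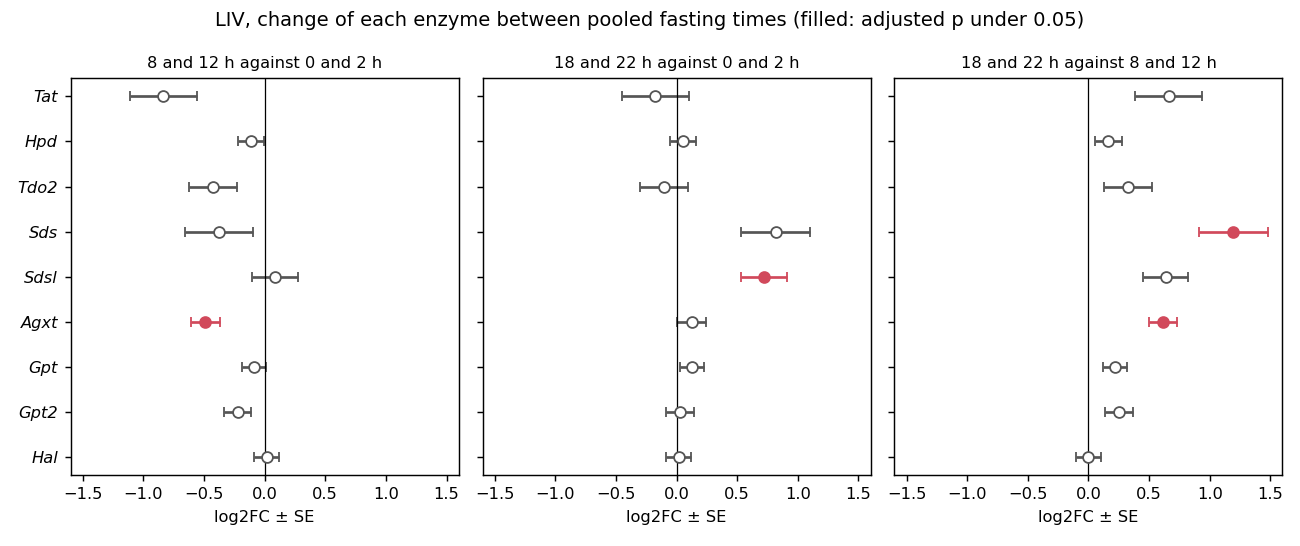
The log2FC (horizontal axes) with its SE of each enzyme in LIV for the 3 pooled comparisons, filled where the adjusted p was under 0.05. Agxt is filled in the left panel, Sdsl in the middle, and Sds and Agxt in the right, where Tat at 0.66 and Sdsl at 0.64 lie as far from 0 as Agxt without passing.

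Tyrosine is degraded first by tyrosine aminotransferase, encoded by Tat, and its keto acid then by 4-hydroxyphenylpyruvate dioxygenase, encoded by Hpd. The normalized CPM of Tat in LIV was 2707, 2816 and 1509 at 0 h, 1523, 1863 and 3091 at 2 h, and 1591, 1558 and 1467 at 8 h. It was 1369, 933 and 795 at 12 h, 1145, 1274 and 3118 at 18 h, and 1678, 2168 and 2612 at 22 h. The 3 libraries at 12 h were below every library at 0, 2, 8 and 22 h and the 3 at 8 h below every one at 22 h, whereas the other pairs of times overlapped, with 1 high mouse at 2 h and 1 at 18 h far above their fellows. Pooled, Tat was 2251 ± 702 at 0 and 2 h, 1286 ± 338 at 8 and 12 h and 1999 ± 776 at 18 and 22 h (SD, n = 6 each). Its log2FC at 8 and 12 h was -0.84 ± 0.28 (SE, adjusted p = 0.0520) and at 12 h alone -1.18 ± 0.39 (adjusted p = 0.0685), neither past the threshold. DESeq2 gave an adjusted p of 0.0261 for the former, and leaving out each of the 18 libraries in turn gave 0.0116 to 0.117, under 0.05 in 6 of the 18 fits. Hpd lay between 1500 and 2448 normalized CPM in all 18 libraries, with a log2FC between -0.11 and 0.17 in the 3 pooled comparisons and no adjusted p under 0.05.

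Tdo2 encodes tryptophan 2,3-dioxygenase, which opens the ring of tryptophan at the head of the kynurenine pathway. It was 1071, 1139 and 699.5 at 0 h, 730, 727 and 825 at 2 h and 576, 744 and 904 at 8 h. At 12 h it was 558, 513 and 575, at 18 h 527, 669 and 1354, and at 22 h 639, 727 and 888. All 3 libraries at 12 h lay below every library at 0, 2, 8 and 22 h, and the ranges of the pooled times overlapped. The log2FC was -0.82 ± 0.28 at 12 h against 0 h (adjusted p = 0.0709), -0.43 ± 0.20 at 8 and 12 h against 0 and 2 h (adjusted p = 0.144) and -0.10 ± 0.20 at 18 and 22 h (adjusted p = 0.766). None passed.

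Serine and threonine are deaminated to pyruvate and 2-oxobutyrate by serine dehydratase, encoded by Sds, and Sdsl encodes a serine dehydratase-like enzyme. Sds was 412, 413 and 151.6 at 0 h, 448, 304 and 527 at 2 h and 259, 263 and 303 at 8 h. It was 358, 273 and 269 at 12 h, 532, 716 and 1303 at 18 h, and 319, 606 and 599 at 22 h. The highest library was at 18 h, and 5 of the 6 libraries at 18 and 22 h lay above all those of 0 and 2 h and above all those of 8 and 12 h. Against 8 and 12 h Sds rose by a log2FC of 1.19 ± 0.29 (adjusted p = 0.0466), and at 18 h alone against 0 h by 1.39 ± 0.41 (adjusted p = 0.0482). Against 0 and 2 h, where 1 fed mouse was low, the log2FC was 0.82 ± 0.28 (adjusted p = 0.0706). Both calls were close to the threshold: of the 18 fits without 1 library, 3 kept the former (adjusted p 0.0144 to 0.120) and 2 the latter (0.0354 to 0.165), which without 18 h replicate 3 was 0.93 (adjusted p = 0.165). Of the other alternatives, 5 of 10 kept the former (adjusted p up to 0.307) and 4 of 9 the latter (up to 0.477). Both were lost with lane as a covariate. The antisense gene Gm15690 ranged from 1.41 to 6.02 normalized CPM at 0 and 2 h and from 3.59 to 14.9 at 18 and 22 h, and its part in the Sds counts was not tested.

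Sdsl was 20.01, 18.4 and 17.7 normalized CPM at 0 h, 20.3, 21.8 and 32.4 at 2 h and 23.03, 20.3 and 24.6 at 8 h. At 12 h it was 25.02, 22.5 and 21.8, at 18 h 19.4, 49.9 and 49.1, and at 22 h 26.2, 33.1 and 37.02. Of the 6 libraries at 18 and 22 h, 4 exceeded all those of 0 and 2 h and 5 all those of 8 and 12 h, whereas 1 at 18 h lay below all those of 8 and 12 h. Against 0 and 2 h Sdsl rose by a log2FC of 0.72 ± 0.19 (adjusted p = 0.0170), and against 0 h at 18 h alone by 1.07 ± 0.27 (adjusted p = 0.0193). It was 0.64 ± 0.19 against 8 and 12 h (adjusted p = 0.0714) and 0.78 ± 0.27 at 22 h against 0 h (adjusted p = 0.113). The call against 0 and 2 h was kept in 17 of 18 fits without 1 library and was lost without 2 h replicate 2 (adjusted p = 0.0535), with lane as a covariate (0.54, adjusted p = 0.601) and in a fit of the 12 libraries alone (adjusted p = 0.0545). The call at 18 h was kept in 13 of 18 fits, was lost without any 1 of the 3 libraries of 0 h or without 18 h replicate 2 or 3 (adjusted p up to 0.0711), and was also lost with lane as a covariate (adjusted p = 0.388), with the 2 alike libraries of 0 h merged (0.0559) and without the 2 libraries with the widest spread (0.0825).

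Agxt encodes alanine-glyoxylate aminotransferase, which removes glyoxylate with alanine as the amino donor and also acts on serine. It was 278, 273 and 186 at 0 h, 197.8, 189.1 and 234.3 at 2 h and 145.7, 152.8 and 159.3 at 8 h. It was 187.9, 167.3 and 150.4 at 12 h, 224, 378 and 321 at 18 h, and 179.8, 197 and 211 at 22 h. In 5 of the 6 libraries at 8 and 12 h Agxt was below all those of 0 and 2 h, and in 5 of the 6 at 18 and 22 h it was above all those of 8 and 12 h. The pooled means were 226 ± 41.6 at 0 and 2 h, 160.6 ± 15.4 at 8 and 12 h and 252 ± 79.2 at 18 and 22 h (SD, n = 6 each). Agxt fell by 0.49 on the log2 scale at 8 and 12 h (SE 0.12, adjusted p = 0.00870) and rose by 0.62 ± 0.12 from there to 18 and 22 h (adjusted p = 0.0184), and at 18 and 22 h it differed from 0 and 2 h by 0.12 ± 0.12 (adjusted p = 0.513). The decrease was called in all 18 fits without 1 library (adjusted p 0.00209 to 0.0304). Within lane L001 alone, 2 libraries of 8 h against 6 of 0 and 2 h, it was -0.58 ± 0.16 (adjusted p = 0.0465), and with lane as a covariate -0.55 ± 0.21 (adjusted p = 0.103). The increase was called in 13 of the 18, was 0.56 ± 0.14 within lane L002 (adjusted p = 0.161) and 0.58 ± 0.15 with lane as a covariate (adjusted p = 0.198). Sds within lane L002 was 1.13 ± 0.27 (adjusted p = 0.214), and no gene of 13710 passed there.

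Gpt and Gpt2 encode the cytosolic and the mitochondrial alanine aminotransferase, which exchange alanine and pyruvate, and Hal encodes histidine ammonia-lyase, the first enzyme of histidine breakdown. Gpt ranged from 269 to 432 normalized CPM in LIV with a median of 319, Gpt2 from 396 to 674 with a median of 532, and Hal from 206 to 333 with a median of 279. No adjusted p of these genes was under 0.05 in the pooled comparisons. The log2FC of Gpt2 was -0.22 ± 0.11 at 8 and 12 h (adjusted p = 0.177) and 0.25 ± 0.11 from there to 18 and 22 h (adjusted p = 0.201), and that of Gpt 0.22 ± 0.10 in the latter (adjusted p = 0.202). Hal was the steadiest between the pooled times, at 282 ± 47.5, 283 ± 20.3 and 283 ± 45.97 (SD, n = 6 each), and its largest single difference was -0.40 ± 0.15 at 2 h against 0 h (adjusted p = 0.301).

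For single times against 0 h, which share the 3 libraries of 0 h, no member passed at 2 h (0.143% of all genes passed) and none at 8 h (0.471%), where the log2FC of Agxt was -0.69 ± 0.17 (adjusted p = 0.0630). At 12 h Agxt passed, with -0.54 ± 0.17 (adjusted p = 0.0394; background 11.9%), and at 18 h Sds and Sdsl (background 9.97%). The Agxt call at 12 h was kept in 13 of 18 fits without 1 library (adjusted p 0.00918 to 0.167) and was lost without 0 h replicate 1 or 2, 12 h replicate 2 or 3 or 22 h replicate 2, with lane as a covariate (0.237), total counts (0.0784), the replicate block (0.0561) or the 2 alike libraries merged (0.158). At 22 h none passed (background 4.15%). At an unadjusted p under 0.05 there were 1427, 2353 and 2829 genes at 2, 8 and 22 h, against 20, 66 and 582 past the threshold. In the joint test of any difference among the 6 times, 16% of all genes passed and of the 9 Agxt alone (adjusted p = 0.00409). That call held in all 18 fits without 1 library, at an adjusted p of up to 0.0126, and with lane as a covariate (0.0217). Sds (0.0517) and Sdsl (0.0544) were just above the threshold.

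The LIV libraries held the defining markers of hepatocytes at a summed level of 79246 to 88723 normalized CPM at 0 and 2 h, 73811 to 88681 at 8 and 12 h and 73354 to 94085 at 18 and 22 h (5 of 6 markers found), with Apoa1 and Trf higher and Apob lower at 18 and 22 h against 0 and 2 h, and Apob lower at 8 and 12 h as well (-0.27, adjusted p = 0.0412). Of 6 pericentral markers 4 fell at 8 and 12 h (Cyp1a2, Cyp2e1, Glul and Rgn) and 4 at 18 and 22 h (Cyp1a2, Glul, Lect2 and Rgn), with a sum of 7408 to 10819 at 0 and 2 h, 5052 to 8305 at 8 and 12 h and 5787 to 9688 at 18 and 22 h. Of 4 periportal markers 2 fell at 8 and 12 h (Ctsc and Cyp2f2), where their sum of 1861 to 2127 lay below the 2193 to 2641 of 0 and 2 h without overlap, and 1 (Hsd17b13) rose from there to 18 and 22 h, with a sum of 1911 to 2876. Cyp2f2 was still below 0 and 2 h at 18 and 22 h (-0.43, adjusted p = 0.00552). Among markers of other cells, 2 of 4 of Kupffer cells (Timd4, -0.89, and Vsig4, -0.73) and 1 of 4 of stellate cells (Dcn, -0.42) fell at 8 and 12 h, and Mylpf of skeletal muscle (2.62) and Cox7a1 of brown fat (1.09) rose. Dcn was also lower at 18 and 22 h than at 0 and 2 h (-0.27). The part of these markers in the differences of Agxt, Sds and Sdsl was not tested.

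The breakdown pathway as a whole was set beside the 9 by a list of 77 other enzymes, of which 75 passed the filter in LIV. At 18 and 22 h against 0 and 2 h, 23 of the 75 fell and 2 rose, 33.3% of the list where 15% of all genes passed, with a median log2FC of -0.16 against 0.01. With a CPM minimum of 5, 24 of the 75 fell and 2 rose, where 2091 of 10578 genes passed. At 8 and 12 h 22 fell and 8 rose (40%, against 18% of all genes, median -0.16), and from there to 18 and 22 h 2 fell and none rose (2.67%, a share near the 2.7% of all genes, median 0.00). Of the 9 enzymes none fell in the first of these comparisons, where their median was 0.05, and the difference between them and the list was not tested. Leaving out each library gave 18 to 28 decreases and 1 to 3 increases in that comparison, 13 to 30 decreases and 2 to 9 increases at 8 and 12 h, and 0 to 3 decreases and 0 to 5 increases (5 without 18 h replicate 1) from there to 18 and 22 h. With lane as a covariate no gene of the list passed at 18 and 22 h, neither against 0 and 2 h nor against 8 and 12 h. At 8 and 12 h against 0 and 2 h, 5 rose and 8 fell with that covariate. Within lane L001 alone 3 rose and 3 fell there (median -0.08), where 892 of 13123 genes passed. Total counts gave 15 decreases and 5 increases at 18 and 22 h against 0 and 2 h, and 14 and 8 at 8 and 12 h.

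**Figure D3:**
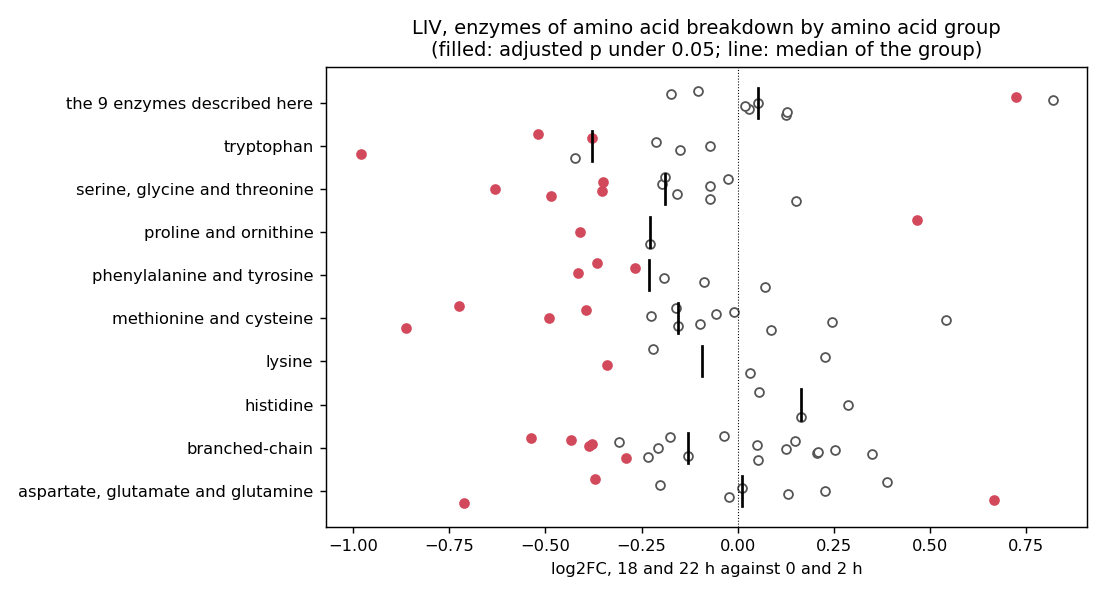
The log2FC in LIV at 18 and 22 h against 0 and 2 h (horizontal axis) of the 9 enzymes and of 75 other enzymes of amino acid breakdown grouped by amino acid, with 1 point per gene, filled where the adjusted p was under 0.05, and a line at the median of each group. Filled points lie to the left of 0 except for Sdsl, Aspg and Prodh2, and the median of the 9 is 0.05 while that of the tryptophan group is -0.38.

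Most enzymes on the routes of the 9 that passed were lower after the long fast. For the differences here and in the next paragraph, lane and the 18 and 22 h fasts cannot be told apart. With lane as a covariate 8 of 14023 genes passed at 18 and 22 h against 0 and 2 h, and none of the list. In the phenylalanine and tyrosine group Qdpr and Pcbd1, which regenerate the cofactor tetrahydrobiopterin, fell at 18 and 22 h (log2FC -0.37 and -0.27). Of 7 enzymes that follow Tdo2 in the kynurenine pathway 3 fell, namely Acmsd (-0.98, adjusted p = 0.0219), Kynu (-0.52, adjusted p = 0.00115) and Kmo (-0.38, adjusted p = 0.0124), and all 7 had a log2FC below 0. Of 11 enzymes of serine, glycine and threonine metabolism 4 fell, among them Gldc (-0.63) and Gcsh (-0.35) of the glycine cleavage system and Dmgdh, dimethylglycine dehydrogenase (-0.49). None of the 3 other enzymes of histidine breakdown passed at 18 and 22 h; Ftcd, which acts last in it, was at 0.29 (adjusted p = 0.0893) and had passed at 8 and 12 h (0.42, adjusted p = 0.0148).

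Of 13 enzymes of methionine and cysteine metabolism 4 fell, with the largest change in Bhmt, which remethylates homocysteine (2403 ± 510 to 1365 ± 431 normalized CPM, SD, n = 6 each; log2FC -0.86, adjusted p = 0.000215), and further in Suox, sulfite oxidase (-0.72), and Cth, cystathionine gamma-lyase (-0.49). Of 19 enzymes of branched-chain amino acid breakdown 5 fell, with Pcca (-0.54), Mut (-0.43) and Hibch (-0.39) first. In the aspartate, glutamate and glutamine group Abat, the aminotransferase of GABA, fell (-0.71, adjusted p = 0.000352), as did the mitochondrial aspartate aminotransferase Got2 (-0.37), and Aspg, an asparaginase, rose (0.67, adjusted p = 0.000426). Prodh2, which oxidizes hydroxyproline, rose (0.47, adjusted p = 0.0177) and Oat, ornithine aminotransferase, fell (-0.41, adjusted p = 0.0322). Among 4 enzymes of lysine breakdown Aldh7a1 fell (-0.34).

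Of 13 genes known to respond to fasting in LIV, 1 (7.69%, against 15% of all genes) passed at 18 and 22 h against 0 and 2 h: Pklr, the liver pyruvate kinase, fell by 0.68 on the log2 scale (adjusted p = 0.0107). The gluconeogenic gene Pck1 was at 0.40 ± 0.42 (adjusted p = 0.562) and the fasting hormone gene Fgf21 at 1.77 ± 0.64 (adjusted p = 0.0690). Ppargc1a, a coactivator of gluconeogenic genes, was the only one that passed at 18 h against 0 h (1.38, adjusted p = 0.0124; 9.97% of all genes). At 8 and 12 h Cpt1a, of fatty acid oxidation, was the only one that passed (-0.56, adjusted p = 0.0403; 18% of all genes). It fell, although it was listed as higher in fasting. From there to 18 and 22 h Pklr alone passed (-0.86, adjusted p = 0.0212; 2.7% of all genes). In the joint test 3 of the 13 passed (23.1%, against 16% of all genes), namely Pklr (adjusted p = 0.00865), Ppargc1a (0.0323) and Pdk4 (0.0438).

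Across the 18 LIV libraries some of the 9 moved together, which is given as a description, since libraries share time, lane and depth. In addition, 18 h replicate 3 was the highest library of Tat, Tdo2, Gpt2, Hpd and Sds, and correlations without it were not computed. Among 9897 genes ranked by Pearson correlation of log2 (CPM + 1), Tat, Tdo2, Gpt2 and Hpd were each among the 100 genes most like the others, with r of 0.84 for Tat and Gpt2, 0.83 for Tdo2 and Gpt2, 0.82 for Tat and Tdo2, 0.82 for Gpt2 and Hpd, 0.80 for Tdo2 and Hpd and 0.76 for Tat and Hpd. Sds was likewise paired with Sdsl (0.77) and with Hpd (0.76), each among the other's 100. Agxt had Sds among its 100 (0.74) and Gpt had Hpd (0.60), but not the reverse, and Hal had no member among its 100. The genes most like Tat were Klf3 (0.94), Atl2 (0.89) and Gm5424 (0.88), those most like Tdo2 Dpys (0.89) and Rnf130 (0.86), and those most like Gpt2 Atl2 (0.94), Trp53inp1 (0.89) and Gabarapl1 (0.88). For Sds they were Mapre2 (0.95), Slc7a2 (0.93) and the overlapping Gm15690 (0.90), and for Sdsl Npm1 (0.87), Fbxo31 (0.86) and Zfp771 (0.86). For Agxt they were Vdac2 (0.85), Tm4sf4 (0.84) and Elovl2 (0.84), for Hpd Sult1a1 (0.88), Rhobtb1 (0.86) and Nfkbia (0.84), for Gpt Slc37a4 (0.86), Ergic3 (0.84) and Etnk2 (0.83), and for Hal Derl2 (0.73), Zfp738 (0.71) and Nit1 (0.71).

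Over the 9 organs, LIV held the highest mean of every one of the 9. For Tat, Tdo2, Sds, Hal, Hpd and Agxt the lowest of the 18 LIV libraries exceeded the highest library of every other organ, whereas Gpt and Gpt2 of LIV overlapped pgWAT and Sdsl overlapped iBAT, STM, BRN and pgWAT. Below LIV, neighbours in the order of organs overlapped for all 9 genes, except that Gpt2 in CBL lay above iBAT throughout. The mean of Hpd in LIV was 1839 ± 240 normalized CPM (SD, n = 18), against 4.81 ± 12.5 in pgWAT, 3.13 ± 7.49 in STM, 2.83 ± 1.91 in iBAT and 0.961 ± 0.855 in psWAT, and no more than 0.0663 in the 4 parts of the nervous system (in BRN, and 0.0319 there without 22 h replicate 3). The pgWAT mean rested on replicate 2 at 18 h (54.8; 1.87 without it) and the STM mean on replicate 2 at 12 h (30.7; 1.40 without it), and without these libraries both lay below iBAT. Tat was 1845 ± 730 in LIV, 2.90 ± 9.70 in pgWAT and 1.74 ± 3.29 in STM, and between 0.0145 and 0.181 elsewhere. The pgWAT mean was 0.626 without replicate 2 at 18 h, and the highest and lowest of the others, in BRN and iBAT, were 0.0779 and 0.00904 without the highest library. In replicate 2 at 18 h of pgWAT Alb, the gene of serum albumin, was at 5.83% of its LIV median, and in replicate 2 at 12 h of STM at 1.31%, and the part of other tissue in these levels was not tested. Hal was 283 ± 37.5 in LIV, 1.99 ± 2.66 in pgWAT, 0.403 ± 0.430 in psWAT and 0.297 ± 0.327 in STM, and at most 0.0561 elsewhere.

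Agxt and Sds had organs without a single read. Agxt was 213 ± 63.2 in LIV (SD, n = 18), 0.636 ± 2.48 in pgWAT, 0.224 ± 0.425 in STM and 0.0336 ± 0.139 in psWAT, and had 0 reads in all libraries of OB, BRN, CBL, BST and iBAT. Without replicate 2 at 18 h the pgWAT mean was 0.0512, without replicate 2 at 12 h the STM mean was 0.144, and the psWAT reads were all in 1 library. Taking 3 counts over all libraries of an organ as the floor, which covers counting error only, Agxt was at least 8454-fold lower in BRN and at least 16251-fold lower in OB than in LIV. Sds was 448 ± 261 in LIV and 0.723 ± 0.409 in BST, at most 0.392 in pgWAT (0.0700 without replicate 2 at 18 h), BRN, STM, CBL, OB and psWAT, and had 0 reads in iBAT, at least 29576-fold lower.

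Tdo2 differed from these in CBL. Its mean was 770.3 ± 228 in LIV, 9.80 ± 24.6 in pgWAT and 8.54 ± 1.89 in CBL, where all 18 libraries held between 4.82 and 11.4 normalized CPM, and 1.63 ± 4.13 in STM, 1.03 ± 0.650 in BRN, 0.795 ± 1.32 in psWAT, 0.540 ± 0.276 in BST, 0.0887 in OB and 0.0867 in iBAT. The CBL range lay above that of BRN, BST, OB and iBAT, and the pgWAT mean rested on 1 library of 107 (4.07 without it, the median being 3.31). Without its highest library the mean was 0.674 in STM, 0.489 in psWAT and 0.0435 in iBAT.

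The alanine aminotransferases and Sdsl were found in every organ. Gpt was 323 ± 42.4 in LIV, 170.2 ± 62.3 in pgWAT, 85.4 ± 20.8 in STM, 76.1 ± 17.9 in iBAT, 58.8 ± 53.5 in psWAT, 19.7 ± 4.84 in BRN, 17.8 ± 2.59 in BST, 13.8 ± 2.05 in CBL and 8.03 ± 1.46 in OB. Gpt2 was 524 ± 79.1 in LIV, 342 ± 90.4 in pgWAT, 131.1 ± 38.996 in STM, 109.01 ± 10.9 in OB, 85.7 ± 71.7 in psWAT, 83.4 ± 20.3 in BRN, 82.2 ± 8.15 in BST, 69.2 ± 7.84 in CBL and 20.9 ± 6.76 in iBAT. Per kb, the mean of Gpt exceeded that of Gpt2 in LIV (109.9 against 92.9), iBAT (25.9 against 3.70) and STM (29.04 against 23.2), at all 6 times in LIV and iBAT and at 5 of 6 in STM. Gpt2 exceeded Gpt at all 6 times in each of the 4 parts of the nervous system, for example 19.3 against 2.73 in OB. In the white fat depots the order changed with time: the mean of Gpt was the higher at 4 of 6 times in psWAT (19.98 ± 18.2 against 15.2 ± 12.7 over all, SD, n = 17) and at 2 of 6 in pgWAT (57.9 ± 21.2 against 60.5 ± 16.02, SD, n = 18). Sdsl was 26.8 ± 9.82 in LIV, 17.6 ± 7.14 in iBAT, 9.82 ± 4.56 in STM, 9.01 ± 1.24 in BST, 8.91 ± 3.99 in pgWAT, 8.57 ± 4.27 in BRN, 4.196 ± 0.728 in CBL, 3.24 ± 3.54 in psWAT and 3.21 ± 0.917 in OB.

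**Figure D4:**
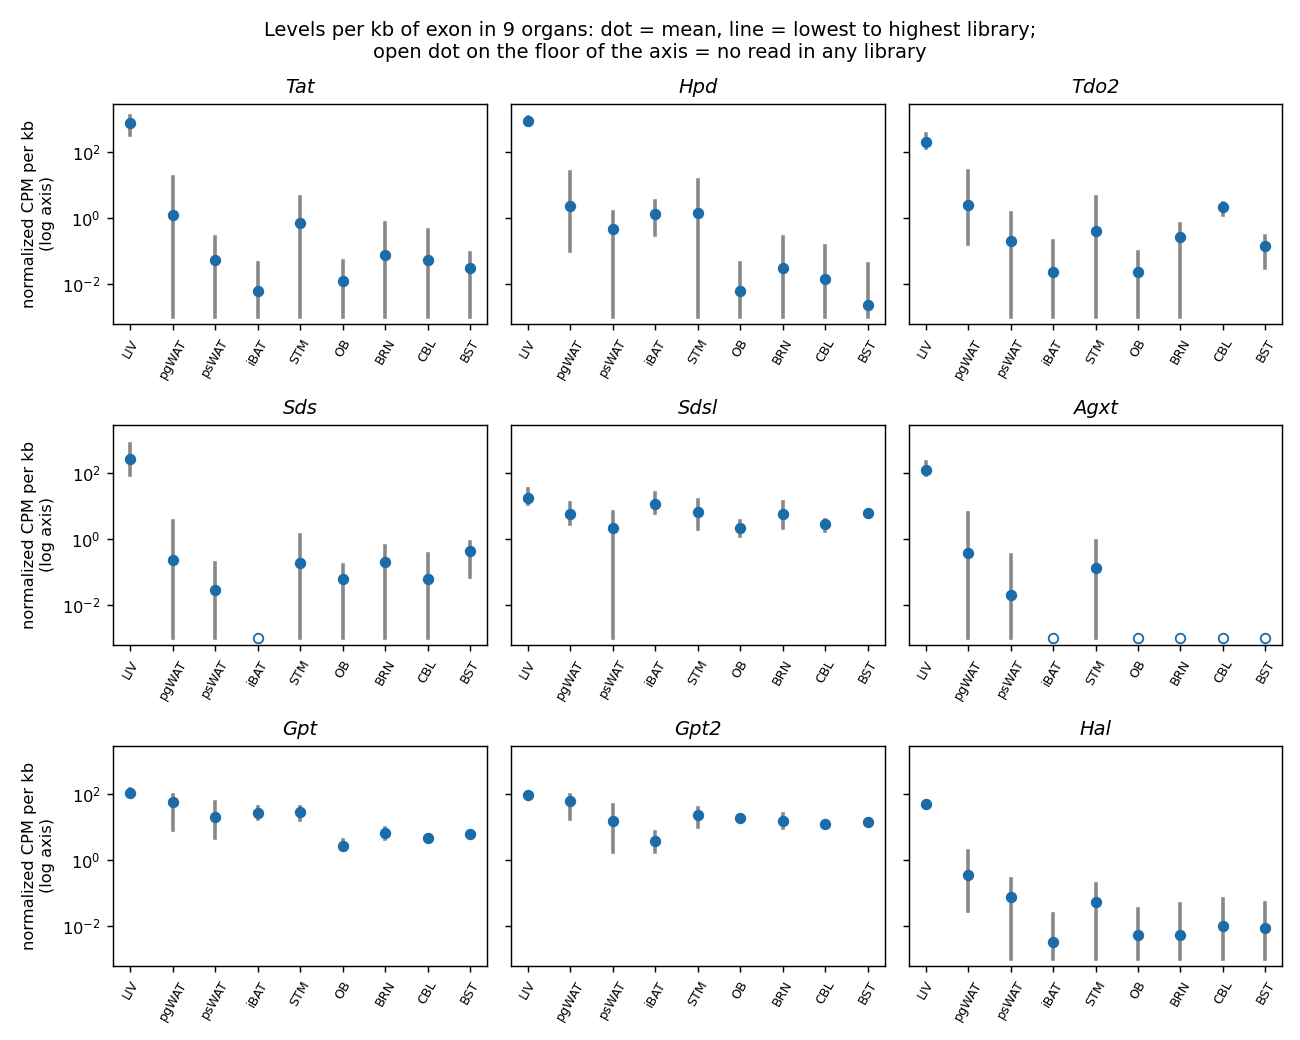
Normalized CPM per kb of exon (log axes) of each enzyme in the 9 organs, with a dot at the mean and a line from the lowest to the highest of 16 to 18 libraries, and an open dot on the floor where no library held a read. LIV stands apart for Tat, Hpd, Tdo2, Sds, Agxt and Hal, while Gpt, Gpt2 and Sdsl are spread over all organs, and Tdo2 in CBL, with a mean of 2.20, forms a narrow band above the rest of the nervous system.

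Outside LIV only the members that passed an organ's filter were tested at 18 and 22 h against 0 and 2 h: 3 in OB, 4 each in BRN, CBL, BST, iBAT and psWAT, 6 in STM and 7 in pgWAT. In iBAT 2 of 4 rose, where 36% of all genes passed. Hpd was 2.25, 1.63 and 1.72 at 0 h, 0.633, 1.07 and 2.80 at 2 h, 2.82, 2.32 and 3.72 at 18 h and 6.04 and 6.56 at 22 h, from no more than 79 reads per library. Both libraries at 22 h lay above all those of 0 and 2 h, while those at 18 h overlapped them. The log2FC was 1.37 ± 0.36 (adjusted p = 0.00820), 1.91 at 22 h alone (adjusted p = 0.00245) and 0.82 at 18 h alone (adjusted p = 0.660), where no gene of 14529 passed, and without replicate 2 of every time the adjusted p was 0.101. Against the change in LIV, in a fit of both organs with the mouse as a block, Hpd in iBAT differed by 1.35 ± 0.30 (adjusted p = 0.00425; background 27.5%). Hepatocyte markers in iBAT were at 0.0143% of the LIV median or less.

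Gpt in iBAT was 59.1, 62.1 and 74.7 at 0 h, 67.2, 52.1 and 70.6 at 2 h, 87.5, 66.6 and 69.3 at 18 h and 93.5 and 123.2 at 22 h, and rose by 0.48 ± 0.15 (adjusted p = 0.0158). As for Hpd, both libraries at 22 h exceeded all others of the comparison, and 18 h alone gave 0.21 (adjusted p = 0.767). These 2 libraries were on lanes L001 and L003, which held no library of 0, 2 or 18 h, so lane and 22 h cannot be told apart for either gene. Without 1 replicate number at a time the adjusted p was 0.0408 to 0.106, under 0.05 in 1 of 3 fits. Summed markers of skeletal muscle in iBAT ranged from 34.1 to 9608 normalized CPM between libraries, from 82.8 to 3197 at 0 and 2 h and from 276 to 2090 at 18 and 22 h, and their part was not tested.

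In STM Gpt2 fell, as 1 of 6 members tested where 22.7% of all genes passed. It was 153.03, 124.7 and 180.0 at 0 h, 148.4, 115.2 and 154.1 at 2 h, 81.3, 115.9 and 70.8 at 18 h and 133.2, 120.8 and 55.04 at 22 h. The groups overlapped, with 3 of the 6 late libraries below all of 0 and 2 h. The log2FC was -0.60 ± 0.20 (adjusted p = 0.0416), -0.27 without replicate 3 (adjusted p = 0.431), and under 0.05 in 1 of the 3 fits without a replicate number. All libraries of 0 and 2 h were on lane L005 and all of 18 and 22 h on L006, so lane and time cannot be told apart. Summed markers of gastric epithelium ranged from 17197 to 45444 at 0 and 2 h and from 6112 to 25189 at 18 and 22 h, and their part was not tested.

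In BRN Sdsl rose, as 1 of 4 tested (background 7.43%). It was 3.17, 3.45 and 4.50 at 0 h, 5.73, 4.76 and 9.65 at 2 h, 19.5 and 6.35 at 18 h and 10.5, 8.91 and 6.87 at 22 h. The log2FC was 1.08 ± 0.32 (adjusted p = 0.0493), with groups that overlapped through the highest library of 2 h. It was 1.23 ± 0.48 with the number series of the library names as a covariate (adjusted p = 0.440), a series that was the same in all 3 libraries of 0 h and another in all those of 18 and 22 h, and 0.46 without replicate 2 (adjusted p = 0.547). The call was also lost with the replicate block, with DESeq2 size factors and with no library left out. In the test against the change in LIV, Sdsl differed by 0.11 ± 0.30 (adjusted p = 0.848).

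**Figure D5:**
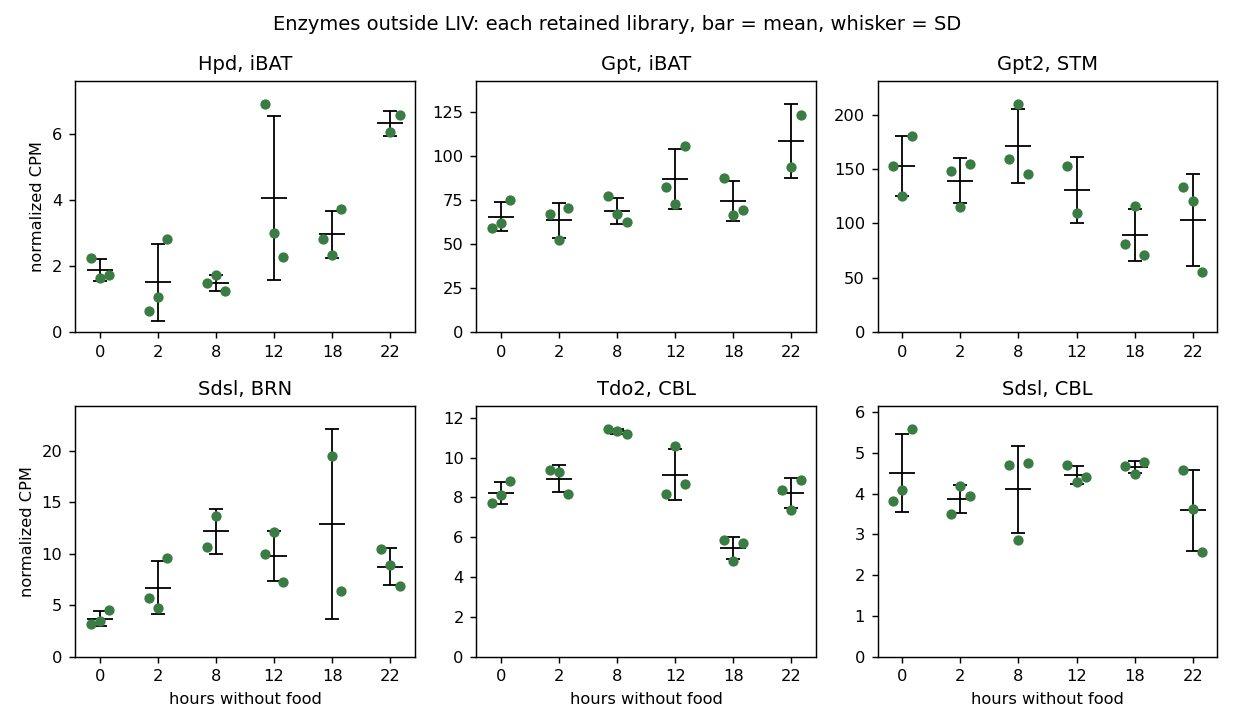
Normalized CPM (vertical axes, linear, from 0) of enzymes outside LIV against hours without food, with 1 point per retained library, the mean as a bar and the SD as whiskers. In iBAT the highest mean of Hpd and of Gpt is at 22 h, with 1 library of 12 h among the highest for each, Gpt2 in STM is lower at 18 h, Sdsl in BRN has 1 library of 19.5 at 18 h, and Tdo2 in CBL is lowest in the 3 libraries of 18 h.

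No member passed in CBL (0 of 4, background 2.48%), OB (0 of 3, 4.87%), BST (0 of 4, 0.0775%), pgWAT (0 of 7, 0.00609%) or psWAT (0 of 4). In psWAT 0% of all genes passed, while 1142 were at an unadjusted p under 0.05 and DESeq2 called 42. Tdo2 in CBL was 7.70, 8.11 and 8.82 at 0 h, 9.35, 9.28 and 8.16 at 2 h, 11.4, 11.4 and 11.2 at 8 h and 8.18, 10.6 and 8.65 at 12 h. It was 5.85, 4.82 and 5.73 at 18 h and 8.36, 7.37 and 8.86 at 22 h. The 3 libraries at 18 h lay below all 15 others and the 3 at 8 h above them, and the pooled log2FC at 18 and 22 h was -0.35 ± 0.11 (adjusted p = 0.0757). In pgWAT, Tat (3.10 ± 1.13, adjusted p = 0.165), Hpd (2.77 ± 0.79, adjusted p = 0.119) and Tdo2 (2.06 ± 0.89, adjusted p = 0.216) rested on replicate 2 at 18 h, in which hepatocyte markers reached 5.06% of the LIV median and Alb alone 5.83%, against at most 0.385% for Alb in the other pgWAT libraries. Without that library Hpd was 1.18 and Tdo2 -0.16, and Tat no longer passed the filter.

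The change at 18 and 22 h was also set against that of LIV for the members tested in both organs. In CBL Sdsl differed from LIV by -0.70 ± 0.24 (adjusted p = 0.0497), as 1 of 4 where 16% of all genes passed, and its change in CBL itself was -0.04 ± 0.16. This call was lost without replicate 2 (-0.52, adjusted p = 0.399) and without replicate 3 (-0.44, adjusted p = 0.355). In STM the difference of Sdsl was -1.41 ± 0.37 (adjusted p = 0.0609; background 1.76%), in BST -0.66 ± 0.23 (adjusted p = 0.0679; background 10%) and in OB -0.81 ± 0.30 (adjusted p = 0.0964; background 7.97%). No member passed in these 3, nor in BRN (3.49%), pgWAT (1.34%) and psWAT (0.00766%). These tests share the LIV libraries.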

How the data were processed

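The deposited table held raw counts per gene, which the authors made from stranded mRNA libraries (TruSeq) with TopHat2 2.1.1 on GRCm38.p5 and HTSeq 0.9.1, taking uniquely mapped reads on the exons of Gencode M16 in the union mode, which leaves out a read that overlaps more than 1 gene. The strand setting is not given in the sources used here. Reads shared with a paralog are lost by unique mapping. Of the libraries, 5 that the study set aside for low totals were left out of the main fits.

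For each organ, a gene was kept if at least 3 libraries reached the CPM that 10 counts make in the library of median depth; the kept genes were scaled by TMM and fitted with 1 mean per time in edgeR 4.0.16 (glmQLFit, glmQLFTest; limma 3.58.1, R 4.3.3), with Benjamini-Hochberg adjustment over all genes kept and a threshold of 0.05. Differences between organs were fitted in 1 model of both organs with the mouse, which the labels number in every library, as a block. DESeq2 1.42.0 was an alternative. Tables and plots were made in Python 3.11.15 with pandas 2.3.3 and matplotlib 3.10.9. The procedure was tested on simulated data: for LIV at 18 and 22 h against 0 and 2 h, 97 of 100 genes changed 2-fold and 98 of 100 changed 4-fold were recovered among 14023, with 15 unchanged genes called. The changed genes were drawn only from those above a minimum mean count, and no lane effect or deviating mouse was simulated. The recovery in the real data may therefore be lower.

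In LIV the replicate numbers did not pair samples across times (mean correlation of deviations -0.03 for the same number, 0.01 for different numbers), so the main fit has no replicate block. Exon lengths are from Gencode M21. The members and the gene lists were chosen with earlier results of these data known. All 9 enzymes are named. From each amino acid group of the list up to 3 genes are named, those with the largest absolute log2FC past the threshold at 18 and 22 h in LIV or, where none passed, the gene with the smallest p, together with the 3 genes most like each enzyme among those with a mean CPM of at least 5. Of the genes this rule names, 2 are not reported here. Depth limits the precision of low levels, and a floor of 3 counts over an organ was used where no read was found.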

Additional observations from a re-analysis of the deposited data

Results flagged for a closer look

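Of the groups of libraries of each tested enzyme, organ and pair of times, 16 (11.9%) held a library far from the rest by Dixon's criterion. Chance gives about 5% for independent, normally distributed values. These groups pool 2 times and the enzymes share libraries, so the share cannot be judged against that 5%. All values are normalized CPM. In LIV, Sdsl in replicate 3 at 2 h was 32.4, against 17.7 to 21.8 in the other 5 libraries of 0 and 2 h.

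In 3 libraries several enzymes stood out together. In STM, 0 h replicate 3 held Hpd at 8.10 (others 0.0695 to 0.725), Tat at 10.0 (0.106 to 0.904) and Tdo2 at 5.45 (0 to 1.45), and 12 h replicate 2 held Hpd at 30.7 (0.0999 to 2.57), Tat at 10.7 (0 to 1.34) and Tdo2 at 16.9 (0.261 to 0.710). Hepatocyte markers were at 3.18% and 3.19% of the LIV median in these 2 libraries, the highest of STM, and Alb alone at 0.676% and 1.31%, against at most 0.116% in the others. The sum also holds genes of other tissues: in 1 CBL library it reached 6.11% with Alb at 0.000152%. In pgWAT, 18 h replicate 2 held Hpd at 54.8 (0.211 to 4.98), Tat at 41.7 (0 to 3.29) and Tdo2 at 107 (1.09 to 16.6), with hepatocyte markers at 5.06% and Alb at 5.83%. The part of these markers was not tested.

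Single enzymes stood out in 6 further groups. In CBL, Sdsl was 5.598 in 0 h replicate 3 (others 3.51 to 4.18) and 2.87 in 8 h replicate 2 (4.28 to 4.75). Gpt in BST was 22.4 in 22 h replicate 3 (14.7 to 16.8). In iBAT, Gpt2 was 38.6 in 2 h replicate 3 (9.64 to 19.4) and Hpd 6.90 in 12 h replicate 1 (1.24 to 2.99). Sdsl in pgWAT was 18.5 in 2 h replicate 1 (4.31 to 8.05).

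The change at 18 and 22 h differed from that of LIV by a log2FC of -0.70 for Sdsl in CBL (edgeR's quasi-likelihood test, adjusted p = 0.0497) and of 1.35 for Hpd in iBAT (adjusted p = 0.00425). Without 1 replicate number at a time, the former passed in 1 of 3 fits (adjusted p 0.00846 to 0.399) and the latter in 2 of 3 (0.0102 to 0.125, lost without replicate 2).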

How the results depend on the processing

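All counts here are of the 9 enzymes past the threshold unless all genes are named. For LIV at 18 and 22 h against 0 and 2 h, the count of 1 became 0 with a log2FC over 1 as well, with lane as a covariate or in the fit of those times alone, and 2 with no filter or DESeq2. At 8 and 12 h the count of 1 became 0 with the log2FC minimum or lane, 2 with DESeq2 or a CPM minimum of 5, and 4 with no filter. At 18 and 22 h against 8 and 12 h the count of 2 became 1 with the log2FC minimum, total counts, the replicate block or the 2 alike 0 h libraries merged (an alternative chosen after seeing the data, as were single lanes, the library series, single times and the 2 widest-spread libraries left out), 0 with lane or lane L002 alone, 3 with DESeq2 and 4 with no filter. Against 0 h, the count at 8 h (0) became 2 with no filter, 1 with DESeq2 and 1 without the 2 widest-spread libraries. At 12 h (1) it became 0 with the log2FC minimum, lane, total counts or merging and 3 with no filter or DESeq2. At 18 h (2) it became 0 with lane, merging or without the widest-spread libraries and 1 with the replicate block or DESeq2 size factors, and at 22 h (0) 2 with no filter. The joint count (1) became 5 with no filter, 3 with DESeq2, a CPM minimum of 5 or total counts, and 2 without the widest-spread libraries. In BRN (1) it became 2 with no filter and 0 with the replicate block, DESeq2 size factors, all libraries with none left out or the library series, in iBAT (2) 0 for 18 h alone and 3 for 22 h alone or with no library left out, and in pgWAT (0) 1 with DESeq2. Over all genes, no filter called 2385 of 28784 in BRN and DESeq2 750 of 15894 in pgWAT. In iBAT 6938 of 14529 genes passed for 22 h alone and 4781 of 14552 with no library left out. Against LIV, the count of 0 became 1 without the mouse as a block in OB, BST, STM and pgWAT and 1 with total counts in BST and STM. Over all genes, 1584 of 12676 passed without the block in OB, 1711 of 12582 in BST, 406 of 13058 in STM and 879 of 13126 in pgWAT. With total counts 1206 passed in BST and 239 in STM. The cause of these changes was not tested.

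Without 1 library at a time the LIV counts ranged from 0 to 2 (18 and 22 h against 0 and 2 h), 1 to 3 (8 and 12 h), 0 to 3 (18 and 22 h against 8 and 12 h), 0 to 0 (2 h), 0 to 1 (8 h), 0 to 4 (12 h), 0 to 2 (18 h), 0 to 1 (22 h) and 1 to 3 (joint). Without 1 replicate number they were 0 to 2 in BRN and iBAT, 0 to 1 in STM, 0 in OB, CBL, BST, pgWAT and psWAT, and against LIV 0 to 1 in OB, BRN, CBL, BST and iBAT and 0 in the others. No called value changed sign.

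Over all genes, the counts for the 3 pooled LIV comparisons, in the order given, were 2098, 2521 and 378, and became 194, 178 and 69 with the log2FC minimum, 8, 1150 and 0 with lane as a covariate, and 1879, 2257 and 263 with the replicate block. No filter gave 2414, 2886 and 1402 of 25595 genes, DESeq2 2352, 2802 and 873 of 14022, and total counts 198 for the third. For the second, a CPM minimum of 5 gave 2542 of 10578 genes, merging 1578 and lane L001 alone 892. Left-out libraries gave 1113 to 2282, 1272 to 2881 and 16 to 1385. Against 0 h, the counts of 20, 66, 1664, 1398 and 582 at 2, 8, 12, 18 and 22 h became 8, 18, 275, 304 and 20.4% of 582 with the log2FC minimum and 6, 1, 683, 767 and 23.5% of 582 with merging. Lane gave 100, 588, 83 and 0 at 8, 12, 18 and 22 h, no filter 525, 761 and 1178 at 2, 8 and 22 h, and DESeq2 160 and 338 at 2 and 8 h. The joint count of 2241 became 4055, 3585, 294 and 1349 with no filter, DESeq2, lane and merging. It became 2300 with a CPM minimum of 5, 1955 with total counts and 1720 without the widest-spread libraries. With total counts the split of higher and lower calls was 1489 and 488 at 18 and 22 h against 0 and 2 h and 1454 and 678 at 8 and 12 h, in place of 1088 and 1010 and of 1267 and 1254. In BRN, left-out numbers gave 0 to 5680 genes in place of 1244, in STM 3.17% of 3696 to 4094 and in iBAT 1491 to 5182 in place of 5230. Of the enzymes tested outside LIV, Hpd in psWAT had the fewest reads (100 in all).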

Other observations

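The 5 libraries that were left out held the following levels, in CPM without further scaling. The 2 BRN libraries, with 130701 and 279848 counts in all, held no read of any of the 9 enzymes. STM 12 h replicate 3 held Gpt at 128, Gpt2 at 98.5 and Sdsl at 25.5. In iBAT, 22 h replicate 1 held Gpt at 84.4, Sdsl at 49.99, Gpt2 at 28.1 and Hpd at 4.07, from 11 reads. In psWAT, 22 h replicate 2 held Gpt2 at 29.5, Gpt at 26.5, Sdsl at 3.40 and Tdo2 at 1.70.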
